A study of Mus musculus with 3 samples.

Results

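The genes described here are the heat shock proteins, their co-chaperones and the cytosolic chaperonin: 89 protein-coding genes of 20823 mouse genes for which reads were deposited over both UTRs and the coding sequence (CDS). They were taken by symbol alone: the Hspa, Hspb, Hspd, Hspe, Hsph and Hsp90 genes with the Hspa and Hspb binding partners Hspbp1 and Hspbap1, the Dnaja, Dnajb and Dnajc genes, Cct2 to Cct8, Tcp1 and Bag1 to Bag6. For each gene the longest transcript was used. The values are ribosome footprints, the mRNA fragments that ribosomes shield from nuclease, from primary cortical neurons of embryonic CD-1 mice. No drug was added to the WT neurons. The Chx neurons were given cycloheximide, an inhibitor of elongation, for 2 min. The Harr neurons were given harringtonine, which holds newly initiated ribosomes while earlier ones run on, for 2 min ahead of their cycloheximide pulse. Each library came from 3 pooled dishes. Cycloheximide at 100 µg per ml was also in the buffers used to rinse and lyse the cells, WT included. With 1 library per treatment no difference below has a replicate check, no test across treatments is possible, and the errors given are counting errors only.

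Chaperones bind unfolded or partly folded proteins, and many of them use cycles of ATP binding to release these. Hsp70 proteins take up short hydrophobic stretches, J-domain proteins deliver clients and stimulate the ATPase of Hsp70, and Hsp110 and Bag proteins exchange its nucleotide. Hsp90 acts later, on near-native clients such as kinases and steroid receptors. The CCT chaperonin is a double ring that folds actin and tubulin, the main cytoskeletal proteins of a neurite, and a separate chaperonin of Hspd1 with its lid Hspe1 works in the mitochondrial matrix. Some members are made constantly and others mainly after heat or other protein damage, through heat shock factors.

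Each read was counted at its 5′ base, which lies upstream of the codon being decoded, so a ribosome on the start codon adds its read to the 5′ UTR if the read begins there. The sequences around the start codons of 10 members that the results turn on are therefore shown first, each as 12 bases before the start codon, the start codon in capitals and 5 bases after it, read from the GENCODE M21 transcripts (GRCm38, the mm10 build) in the direction of the mRNA.
Hspa8: acacaagcaaccATGtctaa
Hspa5: ctcagcgccggcATGatgaa
Hsp90ab1: tttcccgtcaagATGcctga
Hsp90aa1: cattcagccacgATGcctga
Hspd1: cgccccgcagaaATGcttcg
Hspe1: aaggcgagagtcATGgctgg
Cct2: tccgtcggaaccATGgcttc
Cct7: gccgcttccaagATGatgcc
Dnajc5: gactaacctaacATGgccga
Bag2: cccccggagctcATGgccca
The first base of the start codon lies at position 40801923 of chromosome 9 for Hspa8, at 34772322 of chromosome 2 for Hspa5 and at 45571911 of chromosome 17 (minus strand) for Hsp90ab1. In Hspa8, Hspd1, Hsp90ab1 and Hsp90aa1 an intron ends close before the start codon, and the exon with the start codon held 5, 2, 0 and 0 nucleotides of 5′ UTR. In Cct7 the whole 5′ UTR of 608 nucleotides lay in that exon, in Hspe1 all 278 and in Cct2 all 106. Over the 89 members, a G directly after the start codon was found in 67.4%, against 49.2% of 20639 genes, and a purine at 3 bases before it in 86.5%, against 84.1%. At least 1 ATG upstream of the start codon was found in 42.7% of members and in 55.5% of all genes.

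Promoters were read for the letters of known stress elements, in the RefSeq windows of 300 bases around each gene's start (GRCm38.p6), which 73 members had. The heat shock element was searched as GAANNTTC, which reads the same on both strands. It was found in 17 members (23.3%), against 9.04% of 27025 genes. Of the 62 members with a window and at least 100 CDS reads over the 3 libraries, 13 (21%) held it. The close copies Hspa1a and Hspa1b held the same match, 104 bases before the start. The longer form is GAANNTTC followed by any 2 bases and GAA, on either strand, and contains the shorter one. It was found in 4 members (5.48%) against 0.662% of all genes. It reads GAAtcTTCcgGAA 127 bases before the start of Dnajb6 and GAAccTTCcgGAA 84 bases before that of Hspe1, the capitals marking the fixed letters. Hspd1, which starts close by on the other strand, holds the same site as Hspe1, so their matches are not separate. The element of genes for endoplasmic reticulum (ER) chaperones, CCAAT and CCACG with 9 bases between them on either strand, was found in 3 members (4.11%) against 0.137% of all genes. These were the ER chaperones Hspa5, with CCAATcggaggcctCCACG 65 bases before the start, Hsp90b1, with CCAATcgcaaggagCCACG at 212 bases, and Dnajc3, with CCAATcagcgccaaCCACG at 105 bases. A match is a description of these letters and was not tested for binding.

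The libraries held 35722483 (Chx), 9754412 (Harr) and 30219197 (WT) reads, and Harr gave the least precise values. Neuronal markers were abundant: the 8 listed summed to 9809 (Chx), 11355 (Harr) and 10526 (WT) reads per 1000000 CDS reads, against 204 to 386 for 4 astrocyte markers, 43.4 to 50.6 for 5 stromal markers and 3.71 to 11.5 for the microglial, oligodendrocyte and vascular lists. The astrocyte sum was lowest in Harr, and its part in the results was not tested. The oligodendrocyte markers Mog and Mobp were at 0 in all 3 libraries.

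The members took 2.06% of all CDS reads of the Chx library, with a Wilson 95% interval of 2.06 to 2.07. Their share was 2.18% for Harr, between 2.16 and 2.19, and 1.98% for WT, between 1.98 and 1.99. Few genes carried this share. The 3 most read members, Hspa8, Hsp90ab1 and Hspa5, held 44.3% of the members' CDS reads (Chx), 51.5% (Harr) and 43.9% (WT), and Hspa8 by itself held 20.6%, 27.5% and 22.3%. Without Hspa8 the share was 1.64% (Chx), 1.58% (Harr) and 1.54% (WT), with Harr below Chx. Without the genes that share over 20% of their CDS words with other loci, Hspa8 among them, it was 1.24%, 1.30% and 1.25%, with Harr above Chx. Levels are given from here as CDS reads per 1000000 CDS reads and per kilobase (RPKM over the CDS). At the other end, 14 members had fewer than 100 CDS reads over the 3 libraries together. Of these, 5 (Hspb9, Dnajb7, Dnajb8, Dnajc22 and Dnajc5g) had none, which allows up to 0.148 (Chx), 0.795 (Harr) and 0.18 (WT) reads per 1000000 CDS reads. The median level of the 75 members above that minimum was 51.8 (Chx), 47.8 (Harr) and 53.5 (WT), against 22.0, 20.7 and 21.2 over 11459 genes with the same minimum.

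**Figure D1:**
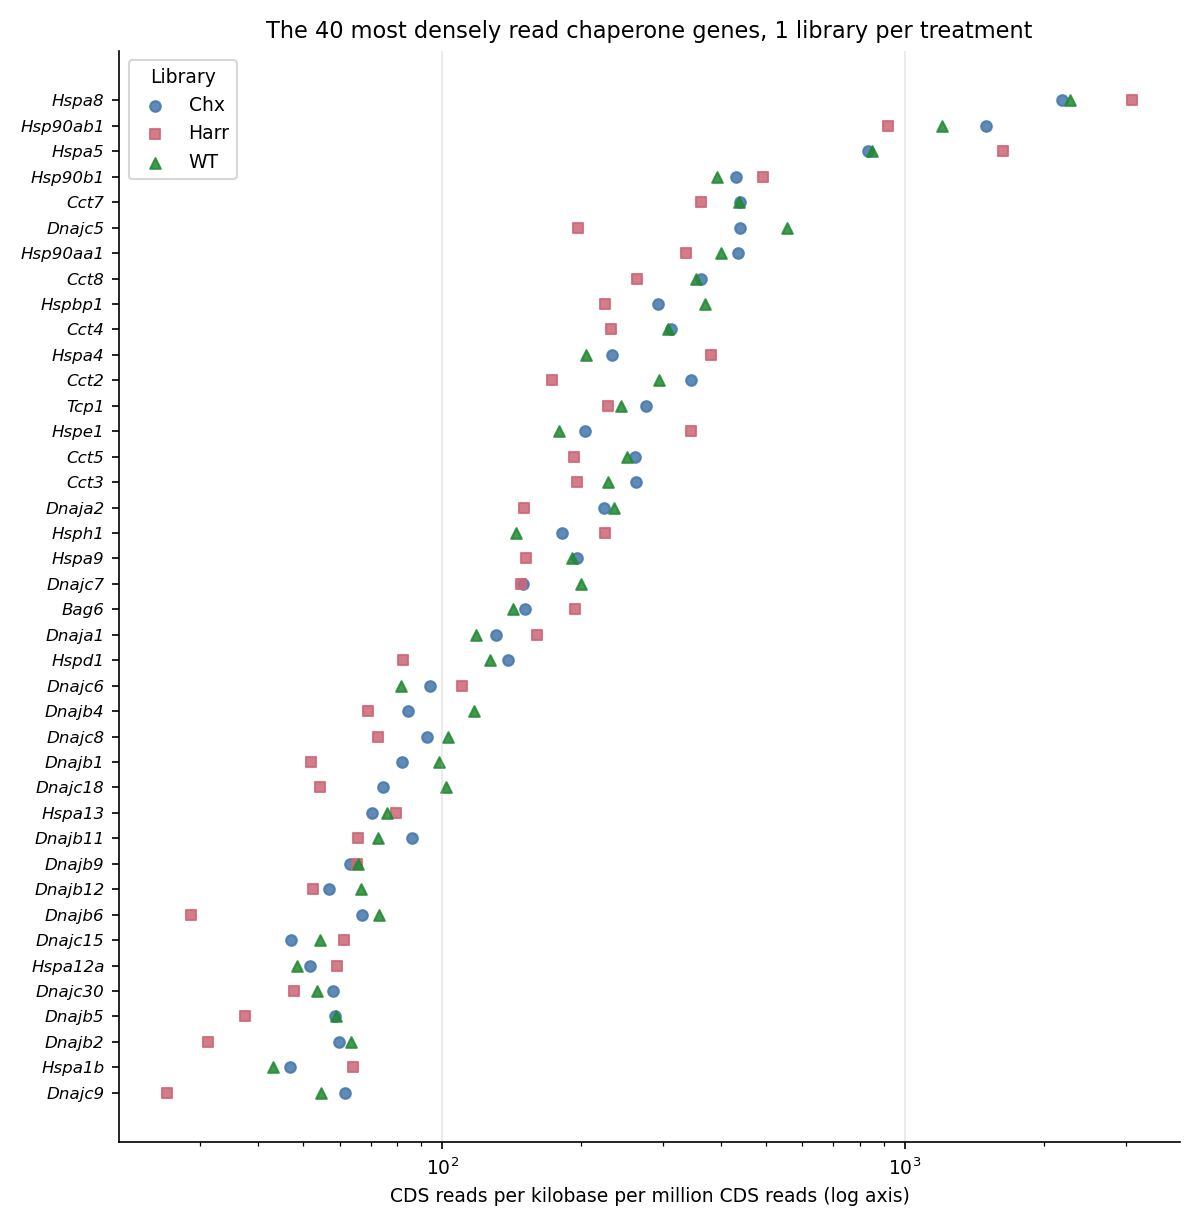
CDS reads per 1000000 CDS reads and per kilobase (log axis) of the 40 members with the highest mean level, one marker per library. Hspa8 lies highest in all 3 libraries, at 2185 (Chx), 3092 (Harr) and 2276 (WT), and the Harr marker of Dnajc5, at 196, lies apart from its Chx and WT markers at 440 and 557.

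To compare a member's CDS between treatments, the CDS ratio was taken: its reads per 1000000 CDS reads in one library over those in another, on the log2 scale, with 0.5 added to each count and at least 100 reads in the pair. Between Harr and Chx, 2 of 72 members were at least 2-fold higher in Harr, where 4.27% of all genes were, and 7 were at least 2-fold lower, where 13.9% were. Between Harr and WT, 1 of 69 members was higher (background 4.83%) and 9 were lower (14.6%). Between Chx and WT, 0 of 74 members were past 2-fold in either direction (0.194% higher and 0.115% lower among all genes). The median CDS ratio of the members in the Harr and Chx pair was −0.20 (range −1.84 to 1.38), in the Harr and WT pair −0.15 (range −1.64 to 1.14) and in the Chx and WT pair 0.02 (range −0.85 to 0.49), beside −0.05, 0.00 and 0.03 over all genes. The split depends on the scale. With the total reads of the file headers in place of CDS reads, the median of all genes moved to −0.60 for Harr against Chx, that of the members to −0.75, and 8.33% of members lay above 0 in place of 38.9%, where 18.6% of all genes did in place of 47.4%. In the Harr and WT pair these medians moved to −0.51 and −0.66, with 11.6% of members above 0 in place of 43.5%, beside 23.6% of all genes in place of 50.2%. Every Harr against Chx ratio drops by 0.55 on that scale. Hspa8, Hspa1b, Hsp90b1, Hsph1, Hspa4l and Dnaja1 are among the members that then lie below 0. Those that remain above 0 are Dnajc14, Bag1, Hspa5, Hspe1, Hspb3 and Hspa4. In a bulk culture, fewer cells that make a protein and less of its mRNA or translation per cell cannot be told apart.

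CDS length moved with the CDS ratio of Harr, and the ratios of the members are read against it. Among 10692 genes the median Harr against Chx ratio went from −0.70 for a CDS under 600 nucleotides to 0.37 at 2000 to 4000 nucleotides. Among the members it was −0.12 (8 genes), −0.42 at 600 to 1200 nucleotides (24 genes), −0.16 at 1200 to 2000 (26 genes) and 0.30 at 2000 to 4000 (13 genes). Spearman's rho of ratio with length was 0.38 over the 72 members and 0.61 over all genes, a description across genes that share 2 libraries. The length-matched ratio subtracts the median of all genes in the same length class. On it, 6 members were at least 2-fold higher in Harr than in Chx (background 5.33%) and 2 lower (5.37%). The higher members were Bag1 at 1.63, Hspe1 at 1.47, Hspb3 at 1.42, Dnajc15 at 1.09, Hspa5 at 1.04 and Dnajc14 at 1.02. The lower ones were Dnajb3 at −1.29, on 5 reads in Harr, and Hsp90ab1 at −1.08. Between Harr and WT, 4 were higher (5.56%), which were Hspe1, Hspb3, Dnajc19 and Hspb11, and Bag2 was lower (6.07%). With 10 length classes that hold equal numbers of the 20823 genes, tested or not, the values of Hspa5 and Hsp90ab1 were 0.81 and −0.87, inside the 2-fold limit.

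**Figure D2:**
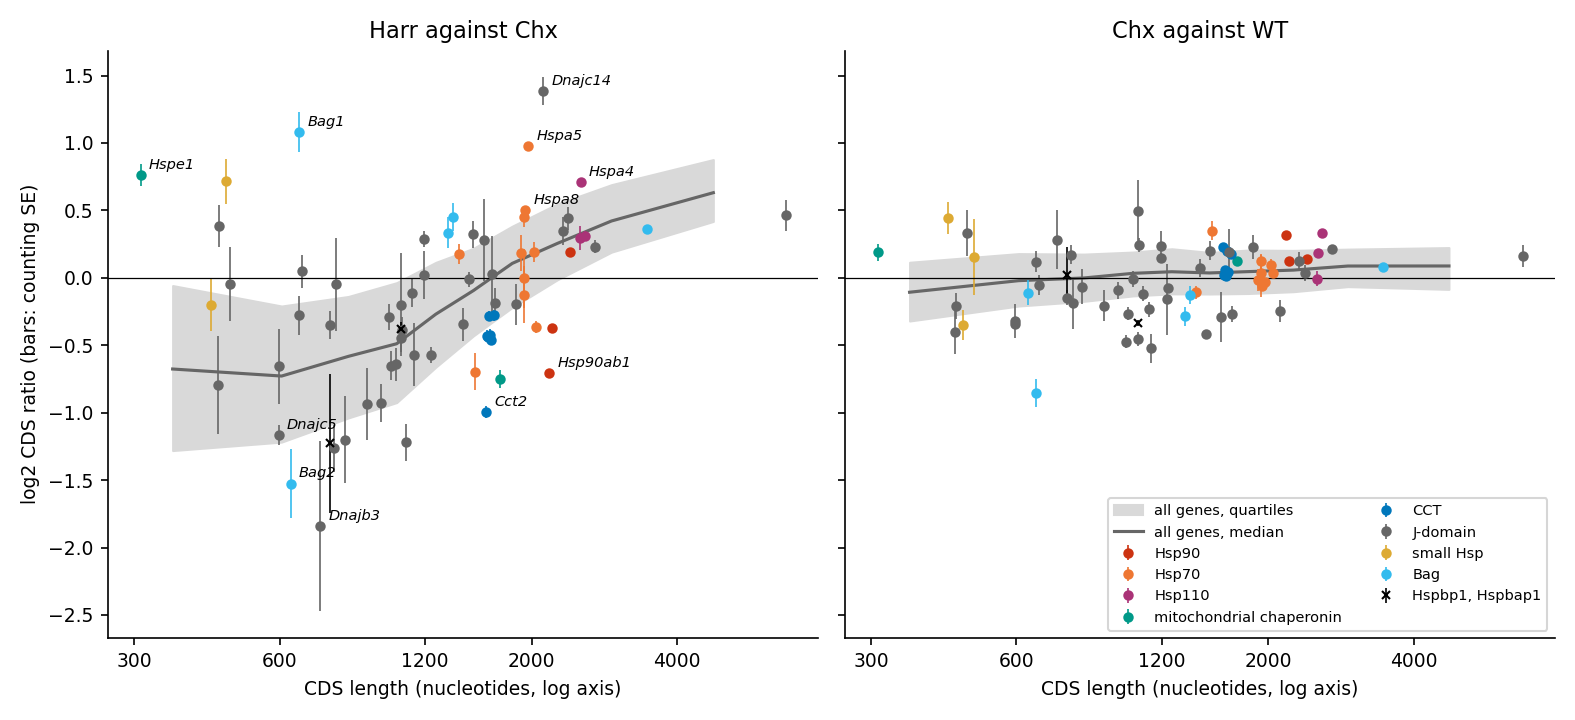
The log2 CDS ratio of each member against its CDS length (log axis), for Harr against Chx (left) and Chx against WT (right), with counting standard errors as bars and the median and quartiles of the tested genes, in 10 length classes of equal numbers of them, in grey. On the left the members spread from −1.84 (Dnajb3) to 1.38 (Dnajc14) around a line that climbs with length, and on the right they lie between −0.85 (Bag1) and 0.49.

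The Hsp90 genes were among the most densely read. Hsp90ab1, the constitutive cytosolic form, had 65995 CDS reads (Chx), 7538 (Harr) and 43610 (WT), which are levels of 1501, 918 and 1203. Hsp90aa1, the inducible cytosolic form, had levels of 437, 337 and 400, and Hsp90b1, the ER form also called Grp94, had 432, 493 and 392. Hsp90ab1 stood above its cytosolic partner by a factor of 3.44 under Chx (counting interval 3.38 to 3.49), 2.72 under Harr (2.61 to 2.84) and 3.01 for WT (2.95 to 3.06). Both cytosolic genes were lower in Harr than in Chx, with CDS ratios of −0.71 ± 0.02 (counting SE) for Hsp90ab1 and −0.37 ± 0.03 for Hsp90aa1, while Hsp90b1 was at 0.19 ± 0.02. At matched length all 3 lay below 0, at −1.08, −0.74 and −0.18. Hsp90ab1 shared 30.7% of its CDS words of 25 nucleotides with other loci and Hsp90aa1 94.0%, so reads of Hsp90aa1 in particular could be split or gained in counting.

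In the Hsp70 family, Hspa8, the constitutive cytosolic Hsc70, had 85718 CDS reads (Chx), 22650 (Harr) and 73663 (WT), and by density ranked 25, 7 and 31 among the 20823 genes. Its CDS ratio was 0.50 ± 0.01 for Harr against Chx and −0.06 ± 0.01 for Chx against WT. Other loci hold 96.1% of its CDS words. The heat-inducible Hspa1a and Hspa1b, close copies for which other loci hold 92.9% and 90.5% of the words, had levels of 8.17 and 46.9 in Chx, 7.43 and 64.0 in Harr and 8.31 and 43.1 in WT. Hspa8 lay above their sum by a factor of 39.7 (Chx), 43.3 (Harr) and 44.3 (WT).

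Hspa5, the ER Hsp70 known as BiP, moved up among the genes in Harr. It had 33053, 12135 and 27851 CDS reads, levels of 831, 1634 and 849, and ranked 147 (Chx), 18 (Harr) and 165 (WT). Its CDS ratio came to 0.98 ± 0.02 for Harr against Chx. Against WT it was 0.94 ± 0.02 for Harr and −0.03 ± 0.01 for Chx, and none of its CDS words occurred at another locus. In Harr it was denser than Hsp90ab1, which it trailed in the other libraries. The mitochondrial Hsp70, Hspa9, had levels of 196, 152 and 190, with a ratio of −0.36 ± 0.05 for Harr against Chx. The ratios of the other measured Hsp70 genes lay between −0.70 ± 0.14 (Hspa14, a ribosome-associated form) and 0.45 ± 0.07 (Hspa1b).

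The 3 Hsp110 genes, nucleotide exchange factors of Hsp70, were all higher in Harr than in Chx, Hspa4 on header totals too but Hsph1 and Hspa4l not. Hspa4 had levels of 233 (Chx), 381 (Harr) and 205 (WT), Hsph1 182, 225 and 144, and Hspa4l 27.6, 33.9 and 27.7. Their Harr against Chx ratios were 0.71 ± 0.03, 0.31 ± 0.03 and 0.30 ± 0.09, and at matched length 0.34, −0.06 and −0.07. Hspbp1, which also releases nucleotide from Hsp70, had levels of 293, 224 and 369.

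The 2 parts of the mitochondrial chaperonin differed in the sign of their ratio. The ring protein Hspd1 (Hsp60) had 4825, 536 and 3650 CDS reads, levels of 139, 82.5 and 127, and the lid Hspe1 (Hsp10) had 1272, 403 and 921 reads, levels of 204, 346 and 179. Their CDS ratios for Harr against Chx were −0.75 ± 0.07 and 0.76 ± 0.08. Hspe1 exceeded Hspd1 per kilobase by 1.47 times under Chx (1.38 to 1.56), 1.41 times in WT (1.31 to 1.51) and 4.19 times under Harr (3.68 to 4.77). The CDS of Hspe1 has 309 nucleotides and that of Hspd1 1722, and at matched length their ratios were 1.47 and −0.68. Other loci hold 90.2% and 84.3% of their CDS words.

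The CCT subunits form a ring in equal numbers. From lowest to highest their footprint densities lay between 261 (Cct5) and 441 (Cct7) in Chx, 173 (Cct2) and 363 (Cct7) in Harr, and 229 (Cct3) and 437 (Cct7) in WT. Cct7 was the highest of the 7 member subunits in each library. The coefficient of variation over these 7 was 20.3% (Chx), 27.2% (Harr) and 24.3% (WT), where counting alone would give 0.983%, 2.69% and 1.13%. Without the first 600 nucleotides of the CDS it was 26.2%, 41.8% and 38.0%. All 7 were lower in Harr than in Chx, from −0.28 ± 0.04 (Tcp1) to −0.99 ± 0.05 (Cct2), and all 7 lay below 0 at matched length, with a median of −0.36. They lie in a narrow length range, 1608 to 1671 nucleotides, Cct2 included. Against WT the Chx ratios ran from 0.01 ± 0.02 (Cct7) to 0.23 ± 0.02 (Cct2). The testis form Cct6b had 3 reads (Chx), 0 (Harr) and 3 (WT), and Cct8l1 had 1 read, in WT.

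**Figure D3:**
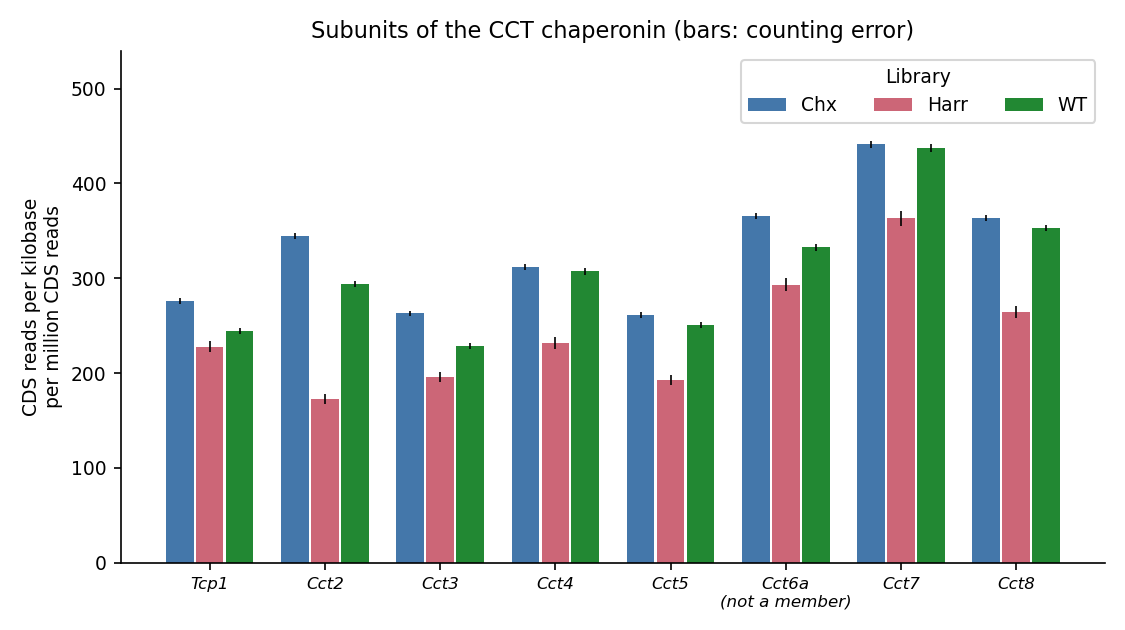
CDS reads per 1000000 CDS reads and per kilobase of the 8 subunits of the CCT ring in each library, with counting standard errors. Cct7 is the tallest bar in all 3 libraries, the Harr bar of Cct2 is the shortest of all, and Cct6a, which the annotation does not type as protein-coding here and which is no member, lies at 366 (Chx), 293 (Harr) and 333 (WT).

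The J-domain genes were the largest group, 45 genes of which 39 passed the read minimum. Dnajc5, the cysteine string protein of synaptic vesicles, was the densest, with levels of 440 (Chx), 196 (Harr) and 557 (WT). It was lower in Harr by 1.17 ± 0.07 on the log2 scale against Chx, and still lower against WT. Its CDS has 597 nucleotides, and at matched length the Harr against Chx value was −0.46. Of its 38 genes tested between Harr and Chx, 5 were at least 2-fold lower in Harr, beside the 13.9% of all genes: Dnajc5, Dnajc9, Dnajc27, Dnajb6 and Dnajb3. Dnajb6, which holds back aggregation of polyglutamine proteins, had 1491, 119 and 1334 CDS reads and a ratio of −1.22 ± 0.14, with 99.2% of its words at other loci. Dnajc9, a histone chaperone partner, had 971, 75 and 711 reads and −1.26 ± 0.17. Dnajb3 had 5 reads in Harr and Dnajc27 21, so these 2 values are loose (SE 0.63 and 0.32). Against WT the members lower in Harr were Dnajc5, Dnajc9, Dnajc27, Dnajb2, Dnajb6, Dnajb14, Dnajc17, Dnajc24 and Bag2.

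Dnajc14 was the exception at the top. It had 604 CDS reads (Chx), 294 (Harr) and 591 (WT), and was higher in Harr by 1.38 ± 0.10 against Chx and 1.14 ± 0.10 against WT. Dnaja2, a cytosolic type with levels of 224, 150 and 235, and Dnaja1, with 131, 160 and 118, differed in sign between Harr and Chx, at −0.57 ± 0.06 and 0.29 ± 0.06. Other loci hold 96.2% of the CDS words of Dnaja1 and 0.08% of those of Dnaja2. On header totals Dnaja1 too lay below 0. Dnajc6 (auxilin), which uncoats clathrin vesicles with Hspa8, had levels of 94.2, 110 and 81.3. Between Chx and WT, Dnajc7 had levels of 149 and 199 and a ratio of −0.42 ± 0.03, Dnajb4 a ratio of −0.47 ± 0.05 and Dnajb14 one of −0.52 ± 0.11. The inducible Dnajb1 (Hsp40) had 82.0, 52.1 and 98.6.

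Small heat shock proteins hold aggregating proteins without ATP. The 8 Hspb genes were scarce, and Hspb11 and the others were placed in this group by symbol alone, not by function. Hspb3 had 324, 99 and 341 CDS reads, Hspb11 384, 62 and 233, and Hspb6 61, 8 and 45, and no other of the 8 reached 100 reads over the libraries. Hspb1, the Hsp27 of stressed cells, had 2 reads (Chx), 0 (Harr) and 3 (WT), with 97.9% of its CDS words at other loci, and Hspb8 had 34, 2 and 26. Hspb3 was at 0.72 ± 0.17 for Harr against Chx. Its CDS is short, and at matched length it was at 1.42.

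Among the Bag genes, Bag6, which guards newly made membrane proteins in the cytosol, was the densest at 151 (Chx), 194 (Harr) and 142 (WT). Bag2, an inhibitor of the ubiquitin ligase Stub1, had 516, 33 and 460 CDS reads and a Harr ratio of −1.53 ± 0.26 against Chx, where Dnajb3 was lower, and of −1.64 ± 0.26 against WT, the lowest of the members. Bag4 had levels of 34.4, 47.0 and 37.7 and Bag5 of 30.4, 38.2 and 37.0. Bag3, the stress-induced partner of Hspb8, had 49, 14 and 48 reads. The values of Bag1 turned on the transcript. In its longest transcript the 5′ UTR overlaps the CDS of a longer form, and held 1056, 576 and 563 reads against 338, 133 and 504 in the CDS. With the transcript of the longest CDS, the 5′ UTR held 69, 55 and 41 reads and the CDS 1315, 649 and 1018, and the Chx against WT ratio went from −0.85 to 0.09. The Harr against WT ratio of Bag1 went from 0.23 to 1.49, past 2-fold. Hspbap1 was at −1.23 for Harr against Chx on its longest transcript and at −0.13 on that of the longest CDS.

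The 5′ UTR was the second readout. It held 4.88% of the members' reads under Chx (4.82 to 4.95), 22.2% under Harr (21.9 to 22.4) and 2.54% for WT (2.48 to 2.59), against 8.71%, 33.5% and 6.14% over all genes. Without Hspa8 the shares were 6.0%, 28.0% and 3.20%, also below those of all genes. Within genes, the odds of a read lying in the 5′ UTR and not in the CDS were 2-fold or more higher in Harr than in Chx for 66 of 70 members with at least 10 reads in each region over the pair, where 92.1% of all genes were, and than in WT for 68 of 69 (background 96%). Between Chx and WT they were higher in Chx for 31 of 70 (34.7%) and lower for 0 (1.85%). The median log2 odds ratio was 2.69 between Harr and Chx, 3.63 between Harr and WT and 0.90 between Chx and WT, beside 2.46, 3.23 and 0.67 over all genes. By group the Harr against Chx median was 3.54 for 3 Hspb genes, 3.11 for 7 CCT subunits, 2.73 for 3 Hsp90 genes and 2.69 for 9 Hsp70 genes. It was 2.51 for 37 J-domain genes, 2.47 for the 2 genes of the mitochondrial chaperonin, 2.01 for 5 Bag genes and 2.00 for 3 Hsp110 genes. Of the Hspb genes, Hspb8 was at 3.64 ± 1.14, with 2 CDS and 9 5′ UTR reads in Harr. Hspb11 was at 3.54 ± 0.31 and Hspb3 at 2.47 ± 0.30.

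Single members ranged far around these medians. Dnajc5 had 1243 5′ UTR reads (Chx), 1817 (Harr) and 444 (WT), so that the 5′ UTR held 18.9%, 79.2% and 7.35% of its reads. The log2 odds ratio of Dnajc5 came to 4.13 ± 0.09 for Harr against Chx. Bag2 had 35, 69 and 15 5′ UTR reads and the highest value, 4.92 ± 0.39, followed by Dnajb6 at 4.47 ± 0.32. Hspa8 had 253, 116 and 116 5′ UTR reads beside its 85718, 22650 and 73663 in the CDS. The share was 0.294%, 0.504% and 0.157%, and the log2 odds ratio of 0.80 ± 0.16 was among the lowest of the members. Lower still were Bag1 at 0.47 ± 0.17, whose 5′ UTR overlaps a CDS, and Dnajc14 at 0.23 ± 0.31, and Dnajc21, with 24, 3 and 2 5′ UTR reads, was the member below 0. Hspa5 had 3245 5′ UTR reads (Chx), 3293 (Harr) and 929 (WT), the largest numbers of any member, with a log2 odds ratio of 1.47 ± 0.04 against Chx and 3.02 ± 0.06 against WT.

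Between Chx and WT the members ranked otherwise. Hsp90ab1 had 581 reads in its 5′ UTR under Chx and 81 for WT, a log2 odds ratio of 2.24 ± 0.17, and Dnajc3, an ER J-domain protein, had 104 and 10, at 2.84 ± 0.47. Hsph1 had 505 and 361, at −0.13 ± 0.10, and Dnaja1 178 and 139, at −0.07 ± 0.17. For Hsp90aa1 the value turned on the transcript: the longest had 44 and 15 5′ UTR reads, at 1.12 ± 0.43, and the most-read transcript had 102 and 90, at −0.23. Dnajc6 likewise went from 0.66, with 522 and 235 reads, to −0.37, with 266 and 242. The 5′ UTR of its longest transcript overlaps a CDS, as do those of Bag1, Bag6, Hspbp1, Dnajb5 and Dnajc19.

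**Figure D4:**
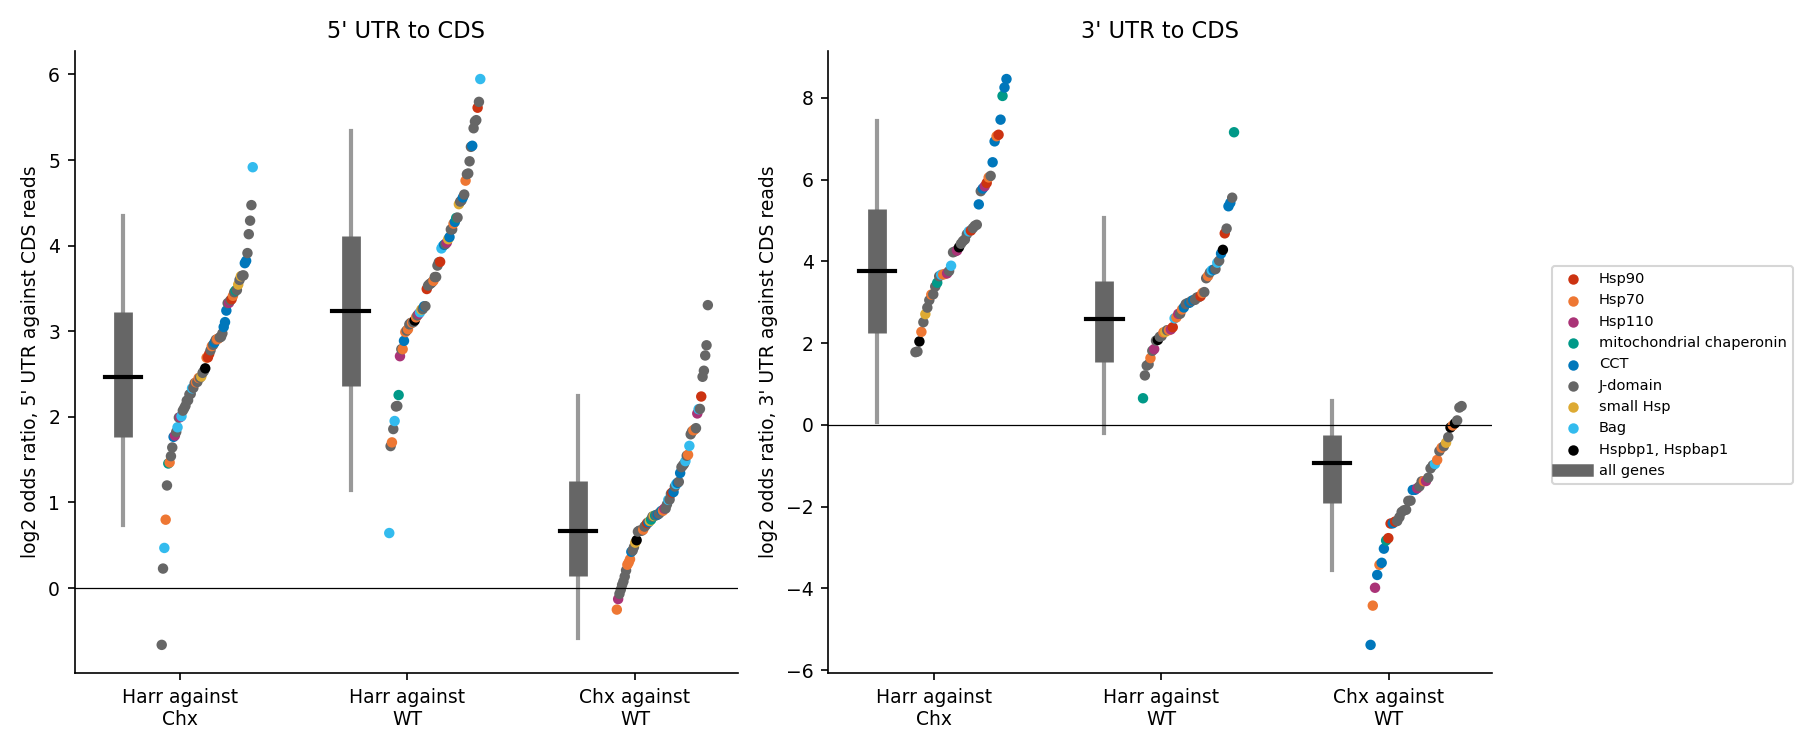
Log2 odds ratios of 5′ UTR (left) and 3′ UTR (right) against CDS reads for the 3 pairs of libraries, one point per member in order of value and coloured by group, beside the median, quartiles and 5 to 95% range of all genes (black line, thick and thin grey bars). Members lie above 0 in both Harr pairs with the exception of Dnajc21 in the 5′ UTR, and for Chx against WT 66 of 70 are above 0 in the 5′ UTR (80.7% of all genes) and 4 of 42 in the 3′ UTR (16.4% of all genes).

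The members with almost no 5′ UTR in the start codon's exon had few 5′ UTR reads for their CDS. In Harr, 5′ UTR reads per CDS read had a median of 0.0530 over Hspa8, Hspd1, Hsp90ab1 and Hsp90aa1, the 4 members with 0 to 6 such nucleotides and enough reads, from 0.00512 to 0.282. It was 0.580 over the 5 members with 7 to 14, 0.571 over the 7 with 15 to 30 and 0.555 over the 54 with 31 or more. Over all genes the medians in the same order were 0.447 (458 genes), 0.625 (641 genes), 0.571 (1145 genes) and 0.668 (8450 genes). In Chx the 4 members had a median of 0.00588 against 0.0765 for all genes of their class. Other loci hold from 30.7% (Hsp90ab1) to 96.1% (Hspa8) of the CDS words of these 4 members. How far the intron or the shared words contributed was not tested.

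The 3′ UTR was the remaining region, and in Cct2, Dnaja3, Dnajb2, Dnajb6, Dnajb12, Dnajc2, Dnajc8 and Hspbap1 it overlaps the CDS of another transcript or gene. It held 0.115% of the members' reads under Chx (0.105 to 0.125), 2.23% under Harr (2.14 to 2.32) and 0.416% for WT (0.395 to 0.438), below the 1.71%, 4.10% and 2.18% of all genes. Within genes the odds of the 3′ UTR over the CDS were compared where each region had at least 10 reads over the pair. They were 2-fold or more higher in Harr than in Chx for 47 of 47 members (background 88.9%, with 1.76% lower). The median was 4.43 against 3.76 over all genes. Against WT they were 2-fold or more higher in Harr for 49 of 50 (84%, with 2.45% lower). Members could pass this minimum through Harr alone: Tcp1 had 1 3′ UTR read in Chx and 70 in Harr, and Hspa9 2 and 48. These counts can therefore not be told apart from the effect of the minimum. Hsp90ab1 had 15, 242 and 54 3′ UTR reads, and Cct2, with its overlap, 5, 181 and 31. Hspa8 had 14 (Chx), 254 (Harr) and 266 (WT). Between Chx and WT, 28 of 42 members were at least 2-fold lower in Chx (background 47.8%). Here a member could pass the minimum through WT alone, as Tcp1 did with 1 read in Chx and 45 in WT.

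Position along the CDS was read from exon segments in the members with a CDS of at least 2000 nucleotides. Reads in segments centred within 600 nucleotides of the start codon were set against those centred beyond 1200 nucleotides. In all 13 members with enough reads the ratio of near to far reads was lower in Harr than in Chx and than in WT (91.3% of genes were in each pair), with median log2 differences of −2.03 and −2.22, against −1.45 and −1.51 over all genes. Hspa4 was the lowest against Chx, at −2.97 ± 0.10, and Hspa4l the highest, at −0.98 ± 0.21. Hsp90ab1 had 20296 near and 25288 far reads in Chx, 807 and 5028 in Harr and 17401 and 14094 in WT. Its near density was 1.07 times the far density under Chx, 0.213 times under Harr and 1.64 times for WT. Between Chx and WT the median was −0.14, with 10 of 13 below 0, beside −0.04 and 53.8% over all genes.

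The segments show where the change lay. In Hsp90ab1 the Harr against Chx ratio was −1.47 in the segment that holds the start codon, −2.71, −2.72, −2.53 and −2.31 in the next 4, −0.93 in the segment centred at 1135.5 nucleotides, and 0.10, 0.08, −0.22 and 0.82 in the last 4. In Bag6 the start segment was above 0, at 1.32, with 491 reads in Chx and 228 in Harr, and the next was at −1.93, with 542 and 26. In Hspa4 the start segment was at −0.42 and the last at 1.82, with 2528, 1667 and 2397 reads in Chx, Harr and WT. The last segments of the 6 genes plotted lay, for Chx against WT, at −1.66 (Bag6), −1.51 (Hsp90b1), −0.68 (Hsp90aa1), −0.35 (Hsp90ab1), −0.20 (Hspa4) and 0.18 (Hsph1).

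**Figure D5:**
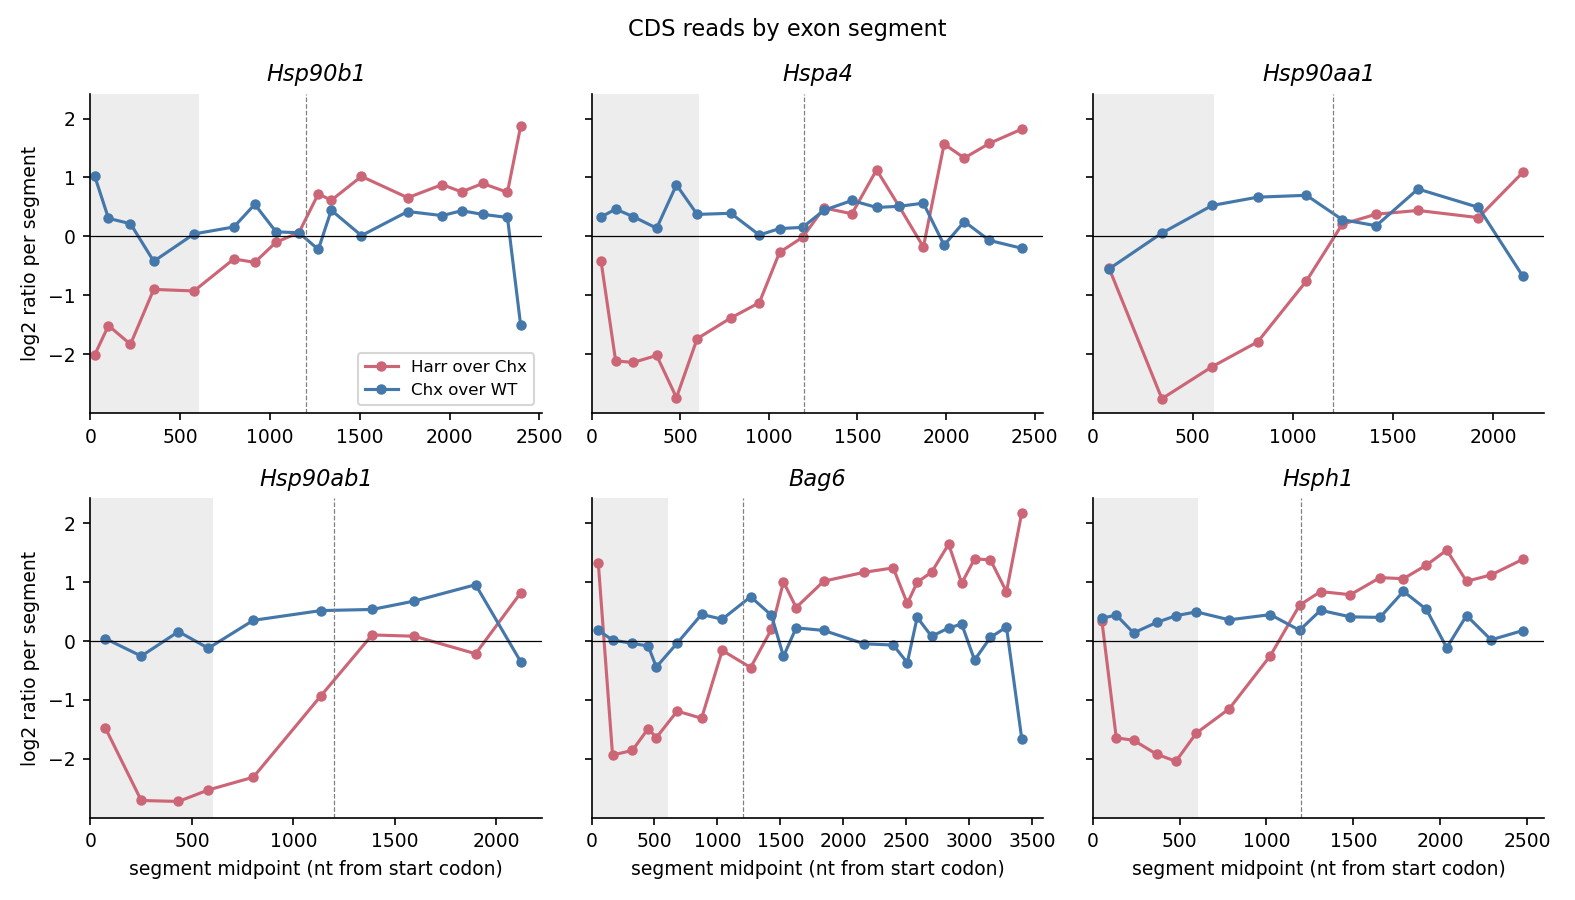
Log2 ratio of reads per exon segment, Harr over Chx (red) and Chx over WT (blue), against the distance of the segment's midpoint from the start codon for the 6 most read long members, with the first 600 nucleotides shaded and a dashed line at 1200. In each gene the red line has its low part before 1200 nucleotides and is higher after it.

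The wider chaperone network was described with 42 listed genes that are not members: heat shock factors, Hsp90 and Hsp70 partners, prefoldin subunits, ER folding enzymes and mitochondrial proteases among them. Between Harr and Chx, 1 of 39 tested was at least 2-fold higher (background 4.27%) and 8 were lower (13.9%), with a median CDS ratio of −0.48. The highest were ER proteins, the disulfide isomerase Pdia4 at 1.01 and the Hsp110-like Hyou1 at 0.88, then the torsin Tor1a at 0.76. The lowest were the prefoldin subunits Pfdn6 at −1.66 and Pfdn2 at −1.51, which hand actin and tubulin to CCT, and Cacybp at −1.42. At matched length the median was −0.02, with 3 higher (background 5.33%) and 0 lower (5.37%). The 5′ UTR odds ratio was past 2-fold in favour of Harr over Chx in 39 of 39, where 92.1% of all genes were.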

How the data were processed

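Footprints from MNase-digested lysates were sequenced after monosomes were collected on a sucrose gradient, with 1 library per treatment. Per the file headers, the authors made the deposited tables with Plastid, counting each read of 25 to 100 nucleotides at its 5′ base with an offset of 0 over transcript regions of mm10. The study's methods state that reads of ribosomal RNA and contaminants were filtered out and that molecular identifiers and barcodes were trimmed. The names of the alignments in the headers mark duplicates as removed, and how they were defined is not given in the sources used here. Each of the 9 deposited tables (3 per library, for the 5′ UTR, CDS and 3′ UTR) gave whole-number counts, the coverage signal (counts per nucleotide) and RPKM, both of the latter as calculated by the authors. The counts were used here, and the deposited coverage and RPKM were not. The RPKM in the text was recomputed as reads per 1000000 CDS reads and per kilobase.

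Gene symbols, CDS structure and start codon sequences came from GENCODE M21 (GRCm38), and overlaps were found with bedtools 2.31.1. Other steps ran in Python 3.11.15 with numpy 2.4.6, pandas 2.3.3 and scipy 1.17.1, and the scripts were tested on simulated counts. Log2 ratios had 0.5 added to each count. Standard errors and Wilson 95% intervals cover counting error only, since each treatment had 1 library. They take each read as a separate molecule, which is not known, and are too small where that does not hold. With 1 library per treatment no p-value was computed, and a gene was counted as higher or lower past 2-fold. CDS reads made up 56.6% (Chx), 38.7% (Harr) and 55.2% (WT) of the totals in the headers.

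The members, lists and measures were chosen with earlier results of these data known. By rule, genes could be named from all measured members of the Hsp90, Hsp70, Hsp110, chaperonin, small heat shock and Bag groups, the 10 most read J-domain genes, the 3 highest and lowest values per measure, members past 2-fold and members whose value turned on the transcript. Dnajc21 and the J-domain members at 0 were named after their values were seen. The spread over CCT was planned for 8 subunits, of which 7 were members. Other transcripts, scalings, read minimums, folds, length classes, added counts and position limits were tried as alternatives.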

Additional observations from a re-analysis of the deposited data

Results flagged for a closer look

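Cct6a, the remaining subunit of the CCT ring, carried reads although it is no member. Its transcript had CDS reads but no 5′ UTR in the tables, and the annotation does not type it as protein-coding. It had 11825 CDS reads (Chx), 1771 (Harr) and 8867 (WT), far above the 3 reads that a count of 0 allows. Its CDS ratio was −0.32 between Harr and Chx, inside the range of the 7 member subunits, and with it the coefficient of variation over the ring was 19.1%, 25.8% and 22.5% in Chx, Harr and WT.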

How the results depend on the processing

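No paired analysis was possible because each treatment had 1 library, and for the same reason no replicate could be left out. Of 231 alternative values of the main results, 175 changed by less than the counting error, the interval of the median or, for counts, 1.5 times, 56 moved by more and none past a limit reversed. The median Chx against WT ratio, 0.02, went to −0.03 without shared words and −0.01 with median-of-ratios factors. The members' share of CDS reads was 2.03% (Chx), 2.15% (Harr) and 1.95% (WT) with the transcript of the longest CDS, 2.05% in Chx and 1.97% in WT with the most-read transcript, and 1.24%, 1.30% and 1.25% without genes that share over 20% of their words. Leaving out Hspa8, an alternative chosen after seeing the data, gave 1.64%, 1.58% and 1.54%. The 5′ UTR share became 4.53%, 21.4% and 2.32% with the longest CDS, 4.34%, 20.9% and 2.15% without UTRs that overlap a CDS, and 6.0%, 28.0% and 3.20% without Hspa8. The 3′ UTR share became 0.0905% in Chx and 0.387% in WT with the longest CDS, 0.0799%, 2.07% and 0.369% without overlapping UTRs, and 0.139% in Chx and 2.53% in Harr without Hspa8.

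Scaling to header totals took the median CDS ratio to −0.75 between Harr and Chx (0 members higher, 20 of 72 lower, beside 0.496% and 31.3% of all genes) and −0.66 between Harr and WT (0 higher, 19 of 69 lower, beside 0.539% and 29.2%). A minimum of 1000 reads left 0 higher and 3 lower in both pairs, beside 4.63% and 16.2% of all genes against Chx and 5.16% and 18.2% against WT. A fold of 1.5 gave 6 higher and 17 lower (17.1% and 26.2% of all genes), 6 higher and 18 lower (19.9% and 25.9%), and between Chx and WT 1 lower (1.53%). Between Harr and Chx 1 of 55 was higher without shared words (3.09% of all genes), and between Harr and WT 2 of 70 were higher with the longest CDS (4.53%). At matched length between Harr and Chx, 1 of 55 was lower without shared words (4.43%), 1 of 72 was lower with 10 classes (4.88%), and of 47 at 1000 reads 2 were higher (3.83%) and 1 lower (3.53%). Between Harr and WT, 1 of 52 was higher without shared words (4.85%), and 0 were lower with 10 classes (5.43%) or at 1000 reads (4.31%). For the 5′ UTR odds ratio a fold of 1.5 gave 1 lower between Harr and Chx (0.588% of all genes) and 54 of 70 higher between Chx and WT (54.3%). The coefficient of variation over CCT was 26.2%, 41.8% and 38.0% without the first 600 nucleotides. Of the members' values past 2-fold 1 reversed, Hsp90aa1 between Chx and WT, at −0.23 in the 5′ UTR odds ratio with the most-read transcript, while Dnajc6, inside 2-fold, went from 0.66 to −0.37. The causes were not tested. Harr, with the fewest reads, limits the precision of scarce members.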

Other observations

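Across the start segments of the long members, which hold the first CDS exon, values differed from those of the segments that follow. Hsph1 had a log2 Harr over Chx ratio of 0.34 in its start segment and −1.64 in the next, and Hsp90aa1 −0.53 and −2.75. Hsp90b1 went the other way, with −2.01 and −1.51. Its start segment, of 49 nucleotides, held 1042 reads (Chx), 48 (Harr) and 424 (WT).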
